A study of Homo sapiens with 4 samples.

Results

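Doxorubicin was compared with aclarubicin, another anthracycline, across all genes measured in MelJuSo cells, a line from a human skin melanoma. The genes compared are those with a probe assigned to 1 gene symbol and detected (detection p-value under 0.01) on at least 1 of the doxorubicin and aclarubicin arrays. This rule kept 12710 probes of 9801 genes, of 10077 genes detected on at least 1 of the 4 arrays of the series. Each group has 1 array, an Illumina expression beadchip of 1 colour read with biotin-labelled total RNA. Aclarubicin was given at 10 µM and doxorubicin at 9 µM. The remaining arrays hold untreated cells and a combination of 10 µM etoposide with 10 µM aclarubicin. Treated cells were exposed for 2 h and washed, and RNA was taken 1 day after removal of the drug. No times are given for the untreated cells. The doses of the anthracyclines differ, so the levels after each are set side by side and a difference between them is a difference between these arrays. In a bulk extract, fewer cells carrying a transcript and less transcript per cell cannot be told apart.

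Anthracyclines are flat, ringed molecules that slide between DNA base pairs. Doxorubicin carries an amino sugar, whereas in aclarubicin the sugar is extended to a chain and its amino group is methylated. Doxorubicin traps topoisomerase II on the DNA it has cut and leaves DNA breaks, which activate p53 through damage kinases. Aclarubicin keeps topoisomerase II from acting on DNA and leaves few such breaks. Both are known to dislodge histones from chromatin. Setting the arrays side by side therefore asks how the transcripts differ between an anthracycline that breaks DNA and an anthracycline that largely does not.

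Levels are log2 signals after background correction and quantile normalization over the 4 arrays. Without replicate arrays there is no spread between replicates and no test, and a gene was counted as higher or lower from 2-fold upward. The error available is between probes: in 1200 genes with exactly 2 probes detected on both arrays, the probes' log2 differences disagreed with an SD of 0.58. Of 9801 genes, 6569 were detected on both arrays, 3089 after doxorubicin only and 143 after aclarubicin only. A gene detected on 1 of the arrays has a lower bound for its fold, taken against the higher of the lowest detected level on the dim array and the probe's own level there. The lowest detected level was 6.19 after aclarubicin and 5.05 after doxorubicin, so faint genes had less room to be seen after aclarubicin. Overall detection differed in the same way: 14773 probes were detected after doxorubicin, 13521 untreated, 9864 after aclarubicin and 9128 after the combination. Quantile normalization gives the arrays 1 distribution. The median difference over all genes was then 0.00 with bounds, of which 1828 were set at 0 because they came out below it, 0.26 with differences as measured and -0.20 over genes detected on both arrays. With bounds it was 0.66 with no scaling between arrays and 0.69 with median scaling. Differences below are therefore relative to the other genes, and the scale of the whole array is not known.

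At 2-fold, 1788 genes (18.2%) were higher after doxorubicin than after aclarubicin and 1830 (18.7%) were lower. The higher genes made up 49.4% of the genes called, against 87.3% (4079 higher and 595 lower) with median scaling and 86.6% (4014 and 622) with no scaling between arrays. Among the higher genes, 500 were lower bounds, and among the lower genes 143 were. The floors of the arrays fix part of these counts: all 143 genes detected after aclarubicin only were called lower, and a gene detected after doxorubicin only could not be. Over the 6569 genes detected on both arrays, 19.6% were higher and 25.7% lower. The middle of the distribution was wide, with the 25th and 75th percentiles of the log2 difference at -0.67 and 0.66 and the 5th and 95th at -1.91 and 2.17. At 8-fold, 142 genes were higher and 56 lower. The untreated array places each side. Of the 1788 higher genes, the untreated level lay nearer to aclarubicin in 631 (35.3%) and nearer to doxorubicin in 1157 (64.7%). Of the 1830 lower genes it lay nearer to aclarubicin in 638 (34.9%) and nearer to doxorubicin in 1192 (65.1%). In both directions the untreated level was more often nearer to doxorubicin than to aclarubicin. Among the untreated, doxorubicin and aclarubicin arrays, aclarubicin thus more often stood apart. These positions were counted under the reported scaling only, with levels below background taken as measured. In 66 of 6489 genes detected on the untreated, doxorubicin and aclarubicin arrays, doxorubicin was at least 2-fold above untreated and aclarubicin at least 2-fold below; in 78 the reverse held. The plot of levels by gene shows the cloud and its leading members.

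**Figure D1:**
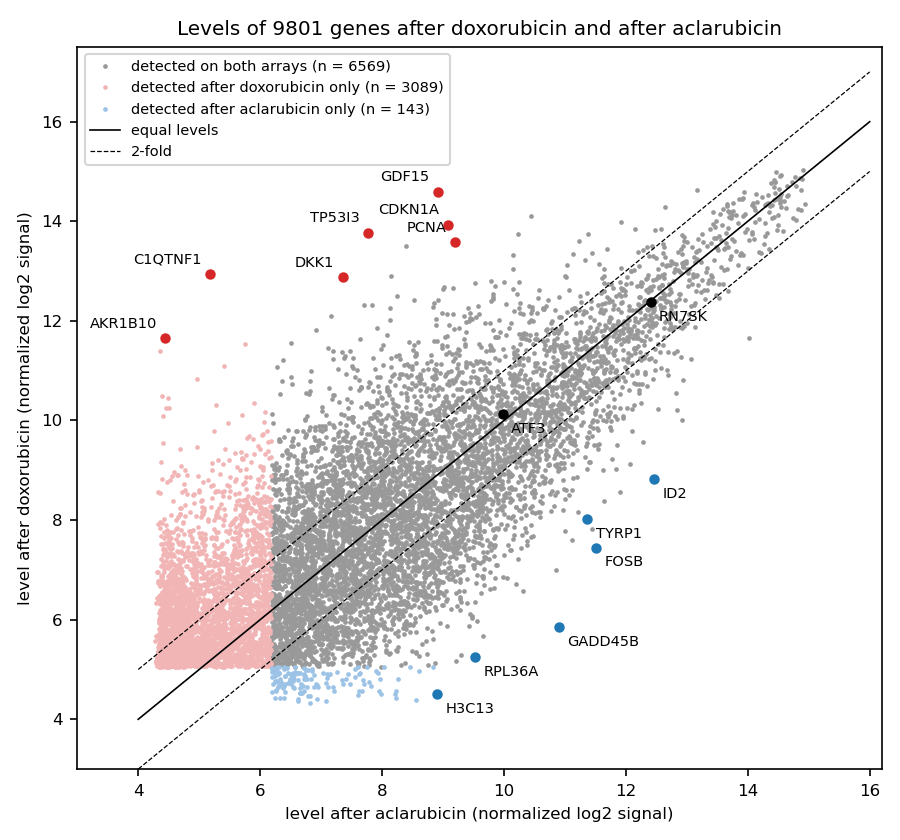
Level after doxorubicin (vertical axis) against level after aclarubicin (horizontal axis), both as normalized log2 signal, 1 point per gene. Solid and dashed lines mark equal levels and 2-fold; of the labelled genes, the red ones (GDF15 at 14.59 against 8.92) lie far above the line, the blue ones (GADD45B at 5.85 against 10.90) far below, and the black ones, RN7SK and ATF3, on it.

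Among genes detected on both arrays, the 3 largest differences in favour of doxorubicin included the p53 targets TP53I3 and GDF15. TP53I3, a quinone oxidoreductase gene that p53 switches on, read 7.63 in untreated cells, 7.77 with aclarubicin, 13.77 with doxorubicin and 8.54 with the combination. Only the doxorubicin array stood apart, 64.1-fold above aclarubicin. GDF15, a secreted stress cytokine, read 10.59 in untreated cells, 8.92 with aclarubicin, 14.59 with doxorubicin and 10.25 with the combination, a 51.1-fold difference, with untreated cells between the drugs. CDKN1A, which encodes the CDK inhibitor p21, read 8.90 in untreated cells, 9.08 with aclarubicin, 13.93 with doxorubicin and 9.82 with the combination. Its aclarubicin level was close to untreated, and doxorubicin was 28.8-fold above it. PPM1D, the phosphatase that turns p53 signalling off again, read 8.39 in untreated cells, 6.27 with aclarubicin, 11.07 with doxorubicin and 6.65 with the combination. Here the drugs lay on opposite sides of untreated and 27.7-fold apart.

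Other leading genes had a low level on the aclarubicin array. DKK1, a secreted Wnt inhibitor, read 13.41 in untreated cells, 7.35 with aclarubicin, 12.87 with doxorubicin and 7.43 with the combination. Doxorubicin was near untreated, and 45.9-fold above aclarubicin. SERTAD2, a transcriptional coregulator, read 10.43 in untreated cells, 6.51 with aclarubicin, 11.57 with doxorubicin and 6.57 with the combination, a 33.3-fold difference of which most was the low aclarubicin level. HPS6, a subunit of a complex that builds lysosome-related organelles such as melanosomes, read 10.06 in untreated cells, 6.36 with aclarubicin, 10.78 with doxorubicin and 6.67 with the combination and was 21.4-fold apart. PCNA, the sliding clamp of DNA replication and also a p53 target, read 12.22 in untreated cells, 9.19 with aclarubicin, 13.58 with doxorubicin and 9.82 with the combination. Its drugs were 20.999-fold apart, with untreated between them. The remaining genes among the 15 highest were AVPI1, SUGCT, PFKFB4, TRAF3IP2, VCF1, PLIN2 and GALR2, at 22.6-fold to 34.6-fold. GALR2, the galanin receptor, was not above background in untreated cells and read 7.83 after aclarubicin and 12.33 after doxorubicin, so it stood above untreated after either drug.

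The largest lower bounds belonged to genes not above background after aclarubicin. C1QTNF1, a secreted protein of the C1q and TNF family, read 4.85 in untreated cells, 5.18 with aclarubicin, 12.95 with doxorubicin and 5.93 with the combination, with the untreated, aclarubicin and combination levels not above background. It was measurable only after doxorubicin, at least 109-fold above aclarubicin, and its 3 probes all ran that way. AKR1B10, an aldo-keto reductase that can reduce the side-chain carbonyl of anthracyclines, read 4.49 in untreated cells, 4.44 with aclarubicin, 11.66 with doxorubicin and 4.52 with the combination, with the untreated, aclarubicin and combination levels not above background. Doxorubicin was at least 44.3-fold above aclarubicin. SRC, a tyrosine kinase, read 7.74 in untreated cells, 5.75 with aclarubicin, 11.54 with doxorubicin and 6.05 with the combination, with the aclarubicin and combination levels not above background, and UCN2, a peptide of the corticotropin-releasing family, read 10.28 in untreated cells, 5.40 with aclarubicin, 11.10 with doxorubicin and 4.35 with the combination, with the aclarubicin and combination levels not above background. These were above background in untreated cells as well, and doxorubicin was at least 40.9-fold and 30.1-fold above aclarubicin. PADI4, RNASE7 and CRYBA1 were above background after doxorubicin alone of the 4 arrays, with bounds of 37.1-fold, 19.8-fold and 19.3-fold. DUSP11, a phosphatase acting on RNA ends, had a bound of 24.9-fold.

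On the opposite side, GADD45B, a stress sensor of the GADD45 family, led the genes higher after aclarubicin. It read 6.16 in untreated cells, 10.90 with aclarubicin, 5.85 with doxorubicin and 11.43 with the combination. Doxorubicin was near untreated, and 33.0-fold below aclarubicin. FOSB, an AP-1 subunit made within minutes of a stimulus, read 5.52 in untreated cells, 11.51 with aclarubicin, 7.45 with doxorubicin and 12.08 with the combination. It stood above untreated after either drug, but 16.7-fold lower after doxorubicin. ID2, an inhibitor of helix-loop-helix factors, read 5.64 in untreated cells, 12.47 with aclarubicin, 8.82 with doxorubicin and 12.83 with the combination, and its drugs were 12.6-fold apart. CD14, known as a receptor of myeloid cells, was not above background in untreated cells and read 8.86 after aclarubicin, 8.94 after the combination and 5.12 after doxorubicin. SNORD43, a small nucleolar RNA, read 5.50 in untreated cells, 8.75 with aclarubicin, 5.08 with doxorubicin and 9.45 with the combination, a 12.7-fold difference with doxorubicin near untreated.

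A second kind of leading gene was low after doxorubicin rather than high after aclarubicin. POLR3G, a subunit of RNA polymerase III, read 8.72 in untreated cells, 9.65 with aclarubicin, 5.68 with doxorubicin and 9.67 with the combination. Doxorubicin was 15.7-fold below aclarubicin, and the other arrays lay close together. SLC39A11, a metal transporter, read 9.83 in untreated cells, 10.31 with aclarubicin, 6.57 with doxorubicin and 9.94 with the combination and was 13.4-fold apart. GMDS, an enzyme of GDP-fucose synthesis, read 8.58 in untreated cells, 9.56 with aclarubicin, 5.98 with doxorubicin and 9.37 with the combination and was 11.99-fold apart. RPL36A, RSU1, SRI and NT5DC2 combined both sides: doxorubicin lay at least 2-fold below untreated and aclarubicin at least 2-fold above. RPL36A, a ribosomal protein gene, read 7.95 in untreated cells, 9.53 with aclarubicin, 5.25 with doxorubicin and 9.85 with the combination, a 19.4-fold difference. The pseudogenes HNRNPA1P33 and HNRNPA1P10 were 14.5-fold and 12.4-fold lower after doxorubicin. HNRNPA1 itself, whose sequence these pseudogenes share and whose values are therefore not independent of theirs, was detected after aclarubicin only and at least 9.07-fold lower. MFSD12, which acts in pigment organelles, was 11.8-fold lower.

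**Figure D2:**
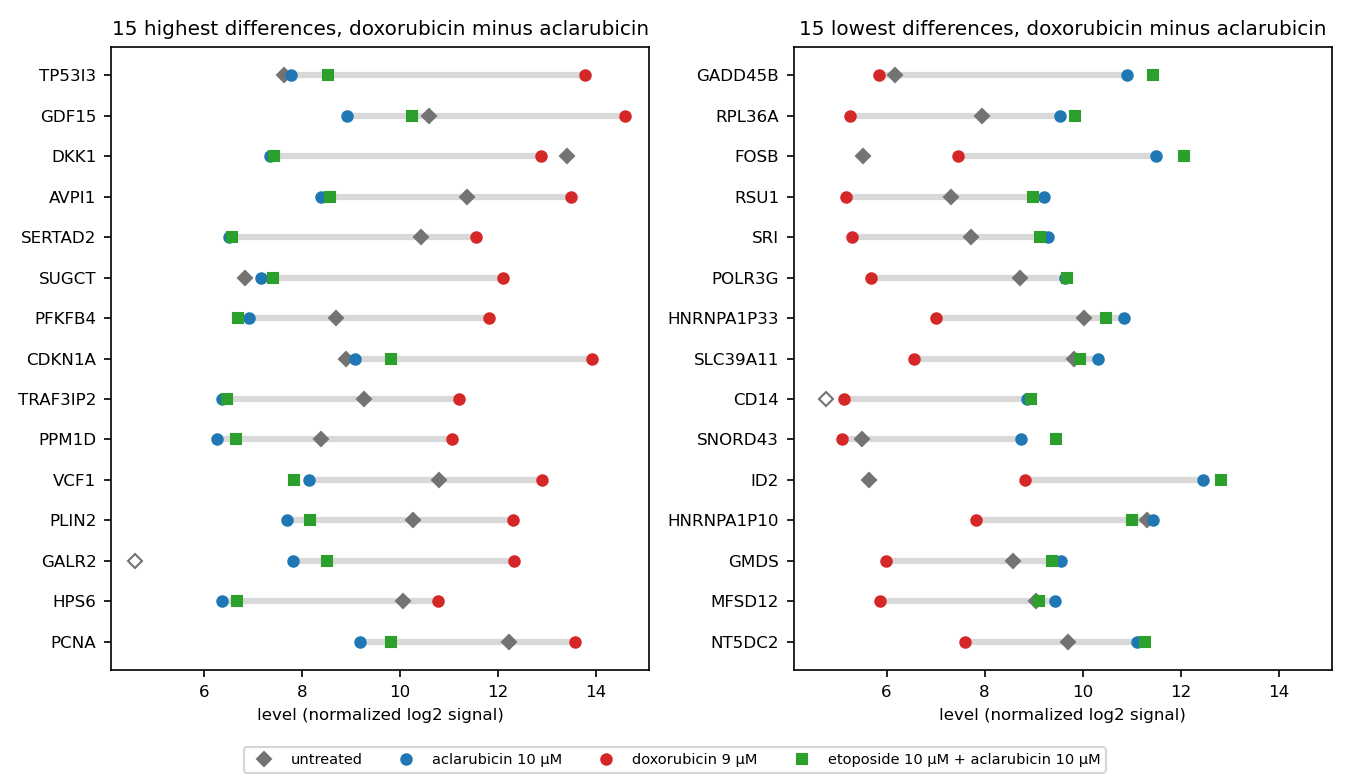
Levels (normalized log2 signal, horizontal axes) on the 4 arrays for the 15 highest and 15 lowest differences among genes detected on both anthracycline arrays with no detected probe of opposite direction. Grey bars join aclarubicin and doxorubicin and open symbols are not above background; TP53I3 and CDKN1A show untreated beside aclarubicin, DKK1 untreated beside doxorubicin, and in FOSB and ID2 untreated lies below both drugs.

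The p53 targets were taken in 3 lists, all of whose medians lay above the median of all genes under each of 6 scalings. Among targets of repair, metabolism and secretion, 14 of 21 measured genes were higher after doxorubicin and 0 lower, with a median log2 difference of 1.51. Their median difference from untreated was 2.33 for doxorubicin and 0.07 for aclarubicin. TIGAR, which diverts sugar into the pentose phosphate pathway, read 8.25 in untreated cells, 7.42 with aclarubicin, 10.93 with doxorubicin and 8.39 with the combination. XPC, a sensor of nucleotide excision repair, read 8.52 in untreated cells, 7.56 with aclarubicin, 10.87 with doxorubicin and 8.70 with the combination. FUCA1, a lysosomal fucosidase, read 4.87 in untreated cells (not above background), 6.54 with aclarubicin, 9.65 with doxorubicin and 6.66 with the combination, and RRM2B, the ribonucleotide reductase subunit that p53 induces, read 6.50 in untreated cells, 7.06 with aclarubicin, 9.83 with doxorubicin and 7.29 with the combination. All 4 were highest after doxorubicin, with aclarubicin below untreated in TIGAR and XPC and above it in FUCA1 and RRM2B, and they were 11.5-fold, 9.94-fold, 8.61-fold and 6.81-fold apart. DDB2, another nucleotide excision repair gene, differed by 0.71 on the log2 scale and did not reach 2-fold.

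Among p53 targets of cell death, 9 of 15 were higher after doxorubicin and 1 was lower, with a median of 1.24. APAF1, the core of the apoptosome, read 8.11 in untreated cells, 6.82 with aclarubicin, 10.80 with doxorubicin and 7.48 with the combination and was 15.8-fold apart. The death receptor gene TNFRSF10B read 10.07 in untreated cells, 9.16 with aclarubicin, 12.65 with doxorubicin and 9.94 with the combination and its relative TNFRSF10A read 7.93 in untreated cells, 6.80 with aclarubicin, 10.54 with doxorubicin and 7.19 with the combination, with differences of 11.2-fold and 13.3-fold. In all 3, aclarubicin lay below untreated and doxorubicin above. PMAIP1, a BH3-only killer, differed from these in that aclarubicin was above untreated too: it read 7.42 in untreated cells, 9.05 with aclarubicin, 10.49 with doxorubicin and 9.86 with the combination. BAX, the pore-forming killer, differed by 0.64 on the log2 scale, short of 2-fold. IGFBP3, a growth factor binding protein, was the gene lower after doxorubicin, at -1.09 on the log2 scale, and turned to 0.13 with median scaling and 0.10 with no scaling between arrays.

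Among p53 targets of arrest and feedback, 8 of 18 were higher after doxorubicin and 0 lower, with a median of 0.40. Of the 18, 7 were above background after doxorubicin only and entered the median as bounds. Over the 11 detected on both arrays, 7 were higher, with a median of 2.28; as measured, the median of all 18 was 1.35. E2F7, a repressor of cell cycle genes, read 8.60 in untreated cells, 6.53 with aclarubicin, 10.74 with doxorubicin and 6.90 with the combination and was 18.6-fold apart. SFN, the 14-3-3 sigma gene, was above background after doxorubicin only, at 10.26 against 4.45 after aclarubicin, at least 16.9-fold. GADD45A read 8.44 in untreated cells, 9.48 with aclarubicin, 12.04 with doxorubicin and 10.12 with the combination, a 5.91-fold difference in the direction opposite to GADD45B. MDM2, the ubiquitin ligase that degrades p53, was measured near background, at 5.15 untreated, 4.97 after aclarubicin and 6.72 after doxorubicin, and its bound did not reach 2-fold. ZMAT3, an RNA-binding p53 target, stood at -0.69 on the log2 scale and was not called.

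A further list of cell death genes shares APAF1, FAS and the TNF-related receptors with the p53 targets. Of 20 genes of apoptosis execution and death receptors, 11 were higher and 2 lower, with a median of 1.07. Without the members of the p53 lists, 8 of 16 were higher and 2 lower. DIABLO, counted as higher, had probes past 2-fold in both directions, so its direction is uncertain. FADD, the adaptor that links death receptors to caspases, read 9.79 in untreated cells, 6.59 with aclarubicin, 9.78 with doxorubicin and 7.05 with the combination, and CASP2, an initiator caspase, read 10.13 in untreated cells, 8.12 with aclarubicin, 10.59 with doxorubicin and 8.06 with the combination. Doxorubicin was near untreated in both, and 9.12-fold and 5.55-fold above aclarubicin. CYCS, which encodes cytochrome c, was lower, at -2.14 on the log2 scale. In the BCL2 family, 6 of 19 were higher and 2 lower. The survival genes BCL2L1 and MCL1 were among the higher: BCL2L1 read 9.35 in untreated cells, 8.09 with aclarubicin, 11.71 with doxorubicin and 7.84 with the combination and was 12.3-fold apart, and MCL1 read 8.30 in untreated cells, 6.47 with aclarubicin, 8.65 with doxorubicin and 7.10 with the combination and was 4.54-fold apart. The family's median was 0.00, and 11 of its members were called neither way.

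**Figure D3:**
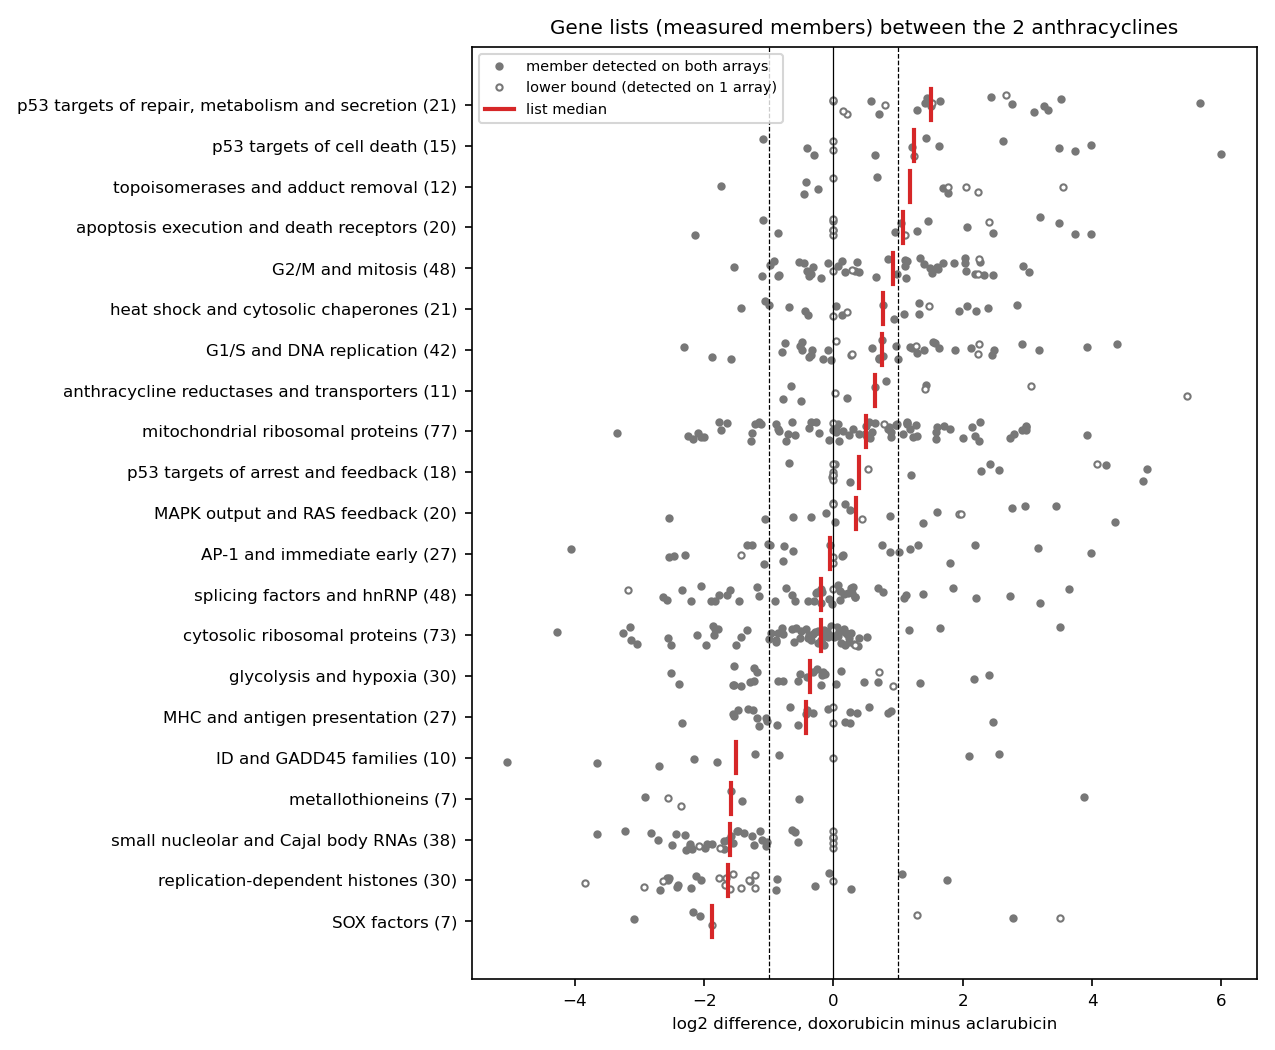
Log2 difference, doxorubicin minus aclarubicin (horizontal axis), of each measured member of 21 gene lists, ordered by list median (red bar); the number of measured members is in brackets. The 3 p53 lists lie to the right with no or 1 member past 2-fold (dashed) on the left, while small nucleolar RNAs and replication-dependent histones lie to the left.

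TOP2A, the topoisomerase II of dividing cells, read 11.51 in untreated cells, 9.79 with aclarubicin, 11.47 with doxorubicin and 9.17 with the combination, 3.23-fold higher after doxorubicin, which was at the untreated level. TOP2B, the form present in all cells, differed by -0.42 on the log2 scale, within the disagreement between probes. Of 12 topoisomerases and adduct-removing factors, 6 were higher after doxorubicin and 1 lower. The median of 1.18 rests on genes not above background after aclarubicin: over the 7 members detected on both arrays it was -0.24. TOPBP1, a scaffold of damage signalling, read 9.59 in untreated cells, 6.05 with aclarubicin, 9.74 with doxorubicin and 5.87 with the combination, with the aclarubicin and combination levels not above background, and its bound was 11.7-fold. TDP1, the enzyme that frees trapped topoisomerase I, ran the other way at 9.24 in untreated cells, 10.62 with aclarubicin, 8.88 with doxorubicin and 10.95 with the combination, 3.36-fold lower after doxorubicin. Among 35 damage signalling and repair genes, 5 were higher (14.3%) and 8 lower (22.9%), with a median of 0.00. Over all genes, 18.2% were higher and 18.7% lower. Over the 29 detected on both arrays, 13.8% were higher and 27.6% lower, near the 19.6% and 25.7% of all such genes. MSH6, of mismatch repair, read 11.63 in untreated cells, 8.02 with aclarubicin, 11.11 with doxorubicin and 8.25 with the combination and was 8.52-fold higher after doxorubicin. XRCC5, a Ku subunit of end joining, read 8.93 in untreated cells, 9.62 with aclarubicin, 7.63 with doxorubicin and 9.10 with the combination and was 3.96-fold lower.

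Genes that metabolise or export anthracyclines were measured for 11 of 20 listed, with 4 higher after doxorubicin and 0 lower; 3 of the 4 were bounds. Besides AKR1B10, the efflux pump gene ABCC2 read 6.34 in untreated cells, 5.70 with aclarubicin, 9.24 with doxorubicin and 5.97 with the combination, with the aclarubicin and combination levels not above background, and its bound was 8.31-fold. AKR1C3, another aldo-keto reductase, read 5.22 in untreated cells (not above background), 6.35 with aclarubicin, 7.79 with doxorubicin and 6.79 with the combination and was 2.71-fold apart. NQO1, a quinone reductase, differed by -0.66 on the log2 scale and was high on all 4 arrays. HMOX1, the heme oxygenase of the oxidative stress response, was above background after doxorubicin only, at 8.53 against 4.81, at least 5.07-fold. In the oxidative stress and iron list, 8 of 25 were higher and 4 lower; TFRC, the transferrin receptor, was 6.15-fold lower after doxorubicin.

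Cell cycle genes stood lower after aclarubicin than after doxorubicin. Of 48 genes of G2/M and mitosis, 23 were higher after doxorubicin and 2 lower, with a median of 0.91. Against untreated, the median was -0.80 for doxorubicin and -1.55 for aclarubicin. CCNA2, cyclin A, read 11.57 in untreated cells, 7.08 with aclarubicin, 10.11 with doxorubicin and 6.41 with the combination (not above background), with the aclarubicin array lowest but for the combination and 8.17-fold below doxorubicin. CDK1, the mitotic kinase, read 11.64 in untreated cells, 9.69 with aclarubicin, 11.96 with doxorubicin and 9.48 with the combination, so that doxorubicin was near untreated. CCNB1, cyclin B, read 9.26 in untreated cells, 6.83 with aclarubicin, 7.49 with doxorubicin and 5.59 with the combination (not above background) and differed between the drugs by 0.66, close to the probe disagreement. KIF4A, a chromosome-binding kinesin, was higher after aclarubicin, at -1.53 on the log2 scale.

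Of 42 genes of G1/S and DNA replication, 19 were higher after doxorubicin and 3 lower, with a median of 0.76. RFC4, a loader of the PCNA clamp, read 10.85 in untreated cells, 7.92 with aclarubicin, 11.85 with doxorubicin and 8.52 with the combination and was 15.2-fold apart. FEN1, which trims Okazaki fragments, read 12.43 in untreated cells, 10.14 with aclarubicin, 13.32 with doxorubicin and 10.74 with the combination and was 9.07-fold apart. SLBP, which binds the stem-loop of histone messages, read 9.86 in untreated cells, 7.28 with aclarubicin, 9.76 with doxorubicin and 7.42 with the combination and was 5.58-fold apart. In these genes doxorubicin was at or above untreated and aclarubicin below. The 3 genes lower after doxorubicin were RRM2, POLA1 and POLD1. RRM2, the replicative ribonucleotide reductase subunit, read 9.63 in untreated cells, 10.16 with aclarubicin, 7.85 with doxorubicin and 9.69 with the combination and was 4.95-fold lower, opposite to its p53-induced relative RRM2B.

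Immediate early genes split. Of 27 measured, 7 were higher after doxorubicin (25.9%) and 9 lower (33.3%), against 18.2% and 18.7% of all genes. The median was -0.05 with bounds, -0.62 as measured and -0.34 over the 24 detected on both arrays. Of those 24, 29.2% were higher and 33.3% lower, against 19.6% and 25.7% of all genes detected on both. FOS read 5.67 in untreated cells, 9.61 with aclarubicin, 7.14 with doxorubicin and 9.72 with the combination and was 5.50-fold lower after doxorubicin, and ZFP36, which destabilises cytokine messages, was 4.89-fold lower. JUND, the AP-1 subunit with steady expression, read 11.84 in untreated cells, 8.99 with aclarubicin, 12.15 with doxorubicin and 9.14 with the combination and was 8.98-fold higher. CCN1, a matricellular protein, read 10.27 in untreated cells, 7.64 with aclarubicin, 11.63 with doxorubicin and 7.90 with the combination and was 15.9-fold higher. ATF3, a stress factor, read 6.68 in untreated cells, 9.98 with aclarubicin, 10.13 with doxorubicin and 10.62 with the combination, above untreated after either drug and 0.15 apart. EGR1, a zinc finger factor, read 6.85 in untreated cells, 9.88 with aclarubicin, 10.89 with doxorubicin and 10.42 with the combination, also above untreated after either drug. MYC, the growth factor-responsive regulator, read 10.44 in untreated cells, 9.76 with aclarubicin, 7.21 with doxorubicin and 10.44 with the combination, with doxorubicin 5.85-fold below aclarubicin.

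The 7SK RNA, which holds the elongation kinase P-TEFb inactive, was alike after both drugs. RN7SK read 6.31 in untreated cells, 12.40 with aclarubicin, 12.38 with doxorubicin and 12.85 with the combination, far above untreated after either anthracycline and -0.03 apart on the log2 scale. Most measured genes of 7SK, P-TEFb and elongation were called neither way, as were 6183 of all 9801 genes. CCNT1 and HEXIM1 were among those called. CCNT1, the cyclin of P-TEFb, read 9.28 in untreated cells, 6.19 with aclarubicin, 10.14 with doxorubicin and 6.02 with the combination (not above background) and was 15.4-fold higher after doxorubicin. HEXIM1, the P-TEFb inhibitor, was above background after aclarubicin and not after doxorubicin, at 6.33 and 4.81, at least 2.42-fold lower after doxorubicin. Of 19 genes of 7SK, P-TEFb and elongation, 5 (26.3%) were higher after doxorubicin and 2 (10.5%) lower, and 12 were neither. Over all genes 18.2% were higher and 18.7% lower. In the list, 3 of the higher and 1 of the lower calls rested on bounds. CDK6, a kinase of early G1, gave a match in the other direction: it read 9.53 in untreated cells, 6.70 with aclarubicin, 6.61 with doxorubicin and 4.87 with the combination (not above background), low after every treatment.

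The ID and GADD45 families and their neighbours were led by genes high after aclarubicin: 6 of 10 were lower after doxorubicin and 2 were higher. ID1 read 6.47 in untreated cells, 10.10 with aclarubicin, 7.41 with doxorubicin and 10.88 with the combination and was 6.47-fold lower after doxorubicin. ID3 read 8.08 in untreated cells, 7.28 with aclarubicin, 9.38 with doxorubicin and 7.87 with the combination and was 4.29-fold higher. HES1, a Notch target, read 6.38 in untreated cells, 8.02 with aclarubicin, 6.22 with doxorubicin and 8.62 with the combination and was 3.48-fold lower. Members of a family thus lay on opposite sides in the ID, GADD45, AP-1, SOX, MXD and RNA polymerase III pairs shown in the plot of family members. The members plotted were chosen for this, so the split is fixed by the choice. Members called neither way, such as ATF3 and JUNB, were left out. Over all genes, 18.2% were higher and 18.7% lower. POLR3GL, the alternative form of the polymerase subunit POLR3G, read 8.25 in untreated cells, 8.81 with aclarubicin, 10.63 with doxorubicin and 9.12 with the combination and was 3.54-fold higher after doxorubicin. MXD4, a partner of MAX, was 2.75-fold higher, while MXD1 read 5.71 in untreated cells, 8.56 with aclarubicin, 5.33 with doxorubicin and 8.95 with the combination and was 9.43-fold lower.

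**Figure D4:**
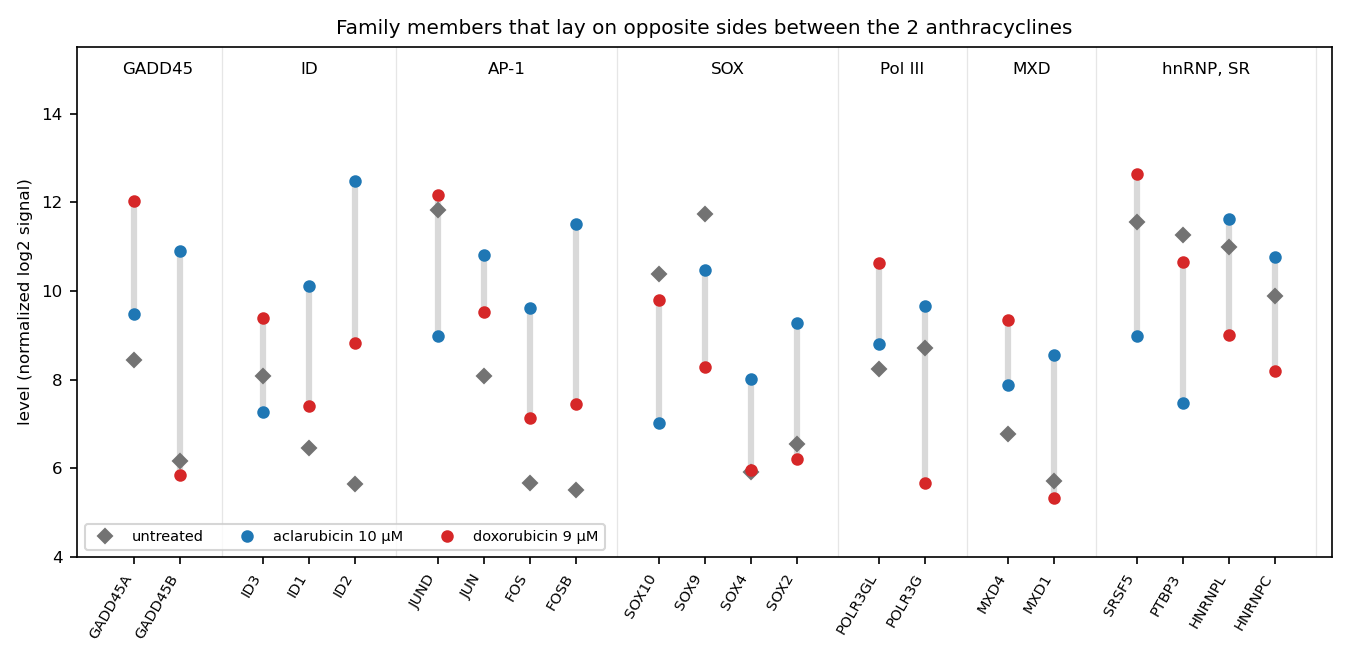
Levels (normalized log2 signal, vertical axis) of family members on the untreated, aclarubicin and doxorubicin arrays; grey bars join the 2 drugs. Members were chosen for lying on opposite sides. By this choice, in each family at least 1 member is higher after doxorubicin (GADD45A at 12.04 against 9.48) and at least 1 is higher after aclarubicin (GADD45B at 10.90 against 5.85).

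Replication-dependent histone genes, whose messages normally end in a stem-loop without a poly(A) tail, were higher after aclarubicin. Of 62 listed, 30 were measured, and 22 were lower after doxorubicin and 2 higher, with a median of -1.63. Of the measured genes, 13 were above background after aclarubicin only and so had to be called lower. Of the 16 detected on both arrays, 9 were lower and 2 higher, with a median of -2.09. The median level of the list was 5.18 untreated, 7.73 with aclarubicin, 5.19 with doxorubicin and 7.99 with the combination. H3C13 read 4.71 in untreated cells, 8.90 with aclarubicin, 4.51 with doxorubicin and 8.38 with the combination, with the untreated and doxorubicin levels not above background. It was at least 14.4-fold lower after doxorubicin. H2AC6 read 5.01 in untreated cells (not above background), 7.86 with aclarubicin, 5.29 with doxorubicin and 8.08 with the combination and was 5.97-fold lower. H4C3 went against the list at 14.24 in untreated cells, 11.69 with aclarubicin, 13.45 with doxorubicin and 11.80 with the combination, 3.40-fold higher after doxorubicin, with H2AC18 on the same side. Histone genes are near-identical in parts, so which of them a probe read is uncertain.

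Small nucleolar and Cajal body RNAs and their host genes, which guide modification of other RNAs, were mostly on the aclarubicin side. Of 38 measured, 30 were lower after doxorubicin and 0 higher, with a median of -1.61. Their median difference from untreated was -0.81 for doxorubicin and 0.99 for aclarubicin. SNORD46 read 5.10 in untreated cells (not above background), 9.28 with aclarubicin, 6.45 with doxorubicin and 9.74 with the combination and SNORD56 read 6.55 in untreated cells, 8.84 with aclarubicin, 5.62 with doxorubicin and 8.47 with the combination, 7.10-fold and 9.36-fold lower after doxorubicin. SCARNA9 read 6.72 in untreated cells, 8.46 with aclarubicin, 5.75 with doxorubicin and 8.52 with the combination, 6.55-fold lower. Many of these RNAs lie in introns of host genes, and whether a probe also read the host transcript was not tested.

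Metallothioneins, which bind zinc and copper, and their regulators gave 5 of 7 lower and 1 higher after doxorubicin, where 18.7% of all genes were lower. Of the 5, MT1E and MT1G were above background after aclarubicin only and so had to be called lower, and SLC39A10 is not a metallothionein. Of the 5 listed genes detected on both arrays, 3 were lower and 1 higher. MT2A read 12.71 in untreated cells, 12.92 with aclarubicin, 10.01 with doxorubicin and 13.21 with the combination and was 7.53-fold lower after doxorubicin, which stood below untreated. SLC30A1, the zinc exporter that shares the metal-responsive factor with them, went the other way at 7.18 in untreated cells, 7.38 with aclarubicin, 11.25 with doxorubicin and 8.07 with the combination, 14.6-fold higher. MT1X, at 10.67 in untreated cells, 11.15 with aclarubicin, 9.56 with doxorubicin and 11.79 with the combination, was 3.01-fold lower.

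Genes of protein synthesis differed in their middle and in their tails. Of 73 cytosolic ribosomal protein genes, 16 were lower after doxorubicin, a share of 21.9% against 18.7% of all genes, and 3 were higher. Over the 70 detected on both arrays, the share lower was 22.9%, below the 25.7% of all genes detected on both. The list's median of -0.20 lay above the median of all genes under cyclic loess. RPL14 read 9.94 in untreated cells, 11.64 with aclarubicin, 8.38 with doxorubicin and 11.89 with the combination and RPS23 read 6.68 in untreated cells, 8.73 with aclarubicin, 5.58 with doxorubicin and 8.69 with the combination, 9.56-fold and 8.86-fold lower after doxorubicin. RPL39L, a paralog of RPL39, read 10.82 in untreated cells, 8.92 with aclarubicin, 12.43 with doxorubicin and 9.25 with the combination and was 11.3-fold higher, and RPS27L, a p53 target, read 13.14 in untreated cells, 12.65 with aclarubicin, 14.29 with doxorubicin and 13.05 with the combination and was 3.13-fold higher. These genes have many processed pseudogenes, and their values are uncertain where a probe matches those too. RPL34 had a probe in each direction past 2-fold, so its direction is uncertain. Of 77 mitochondrial ribosomal protein genes, 25 were higher after doxorubicin and 15 lower, with a median of 0.50. MRPL39 read 10.00 in untreated cells, 7.47 with aclarubicin, 11.39 with doxorubicin and 7.34 with the combination and MRPL24 read 11.45 in untreated cells, 11.91 with aclarubicin, 8.56 with doxorubicin and 11.90 with the combination, 15.2-fold higher and 10.2-fold lower.

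In RNA processing, 8 of 48 splicing factors and hnRNP genes were higher after doxorubicin and 14 lower, with a median of -0.19 whose direction relative to all genes turned under cyclic loess. Over the 46 detected on both arrays, 17.4% were higher and 28.3% lower, near the 19.6% and 25.7% of all such genes. SRSF5 read 11.57 in untreated cells, 9.00 with aclarubicin, 12.63 with doxorubicin and 9.09 with the combination and was 12.5-fold higher, with SRSF4 and SRSF1 at 4.62-fold and 3.59-fold. HNRNPL read 11.002 in untreated cells, 11.63 with aclarubicin, 9.00 with doxorubicin and 11.55 with the combination and HNRNPC read 9.89 in untreated cells, 10.77 with aclarubicin, 8.19 with doxorubicin and 10.996 with the combination, 6.19-fold and 5.98-fold lower. PTBP3, a splicing repressor, was 9.14-fold higher. The aminoacyl-tRNA synthetases, which charge tRNAs, gave 5 lower and 3 higher of 19, led by VARS1 at -2.29 and RARS1 at 2.53 on the log2 scale. Over the 18 detected on both arrays, 16.7% were higher and 27.8% lower, also near the shares of all such genes.

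Heat shock genes and cytosolic chaperones gave 9 of 21 higher after doxorubicin and 3 lower, with a median of 0.77. HSPA1B, an inducible HSP70, read 11.22 in untreated cells, 9.85 with aclarubicin, 12.70 with doxorubicin and 10.35 with the combination and was 7.19-fold apart. HSPA8, the constitutive HSP70, read 13.81 in untreated cells, 11.13 with aclarubicin, 13.34 with doxorubicin and 10.85 with the combination and was 4.64-fold apart, with aclarubicin below untreated. In the unfolded protein and ATF4 list, 6 of 31 were higher and 7 lower, near the shares over all genes. In it, CANX, calnexin, read 9.29 in untreated cells, 10.42 with aclarubicin, 8.25 with doxorubicin and 10.33 with the combination and PDIA4, a disulphide isomerase, read 7.34 in untreated cells, 8.91 with aclarubicin, 6.80 with doxorubicin and 9.10 with the combination, 4.52-fold and 4.31-fold lower after doxorubicin. CEBPB, a stress-responsive factor, was 6.67-fold higher.

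Among genes of antigen presentation, 10 of 27 were lower after doxorubicin (37.0%) and 1 was higher, with a median of -0.43. Over all genes, 18.7% were lower. Over the 25 detected on both arrays, 40.0% were lower, against 25.7% of all such genes. The MHC class II gene HLA-DPB1 read 7.45 in untreated cells, 9.15 with aclarubicin, 6.82 with doxorubicin and 9.36 with the combination and was 5.06-fold lower. TAP1 and TAP2, which together form the peptide transporter, lay on opposite sides: TAP1 read 9.18 in untreated cells, 10.15 with aclarubicin, 12.63 with doxorubicin and 10.74 with the combination and was 5.56-fold higher, and TAP2 read 7.18 in untreated cells, 8.68 with aclarubicin, 7.13 with doxorubicin and 8.68 with the combination and was 2.94-fold lower. The interferon-stimulated list gave 4 of 22 higher and 0 lower. Its share of higher genes was the 18.2% of all genes, and 12 of its members were detected after doxorubicin only and could not be called lower. Among the higher was IRF1, an interferon regulatory factor, at 4.85-fold. In glycolysis and hypoxia, 10 of 30 were lower (33.3%) and 3 higher (10.0%). Over the 28 detected on both arrays, 35.7% were lower, against 25.7% of all such genes. ALDOC, an aldolase, read 8.56 in untreated cells, 10.35 with aclarubicin, 7.84 with doxorubicin and 10.73 with the combination and was 5.71-fold lower, while SLC2A1, the glucose transporter, read 10.73 in untreated cells, 8.74 with aclarubicin, 11.15 with doxorubicin and 7.13 with the combination and was 5.31-fold higher. In MAPK output and RAS feedback, 8 of 20 were higher (40.0%) and 2 lower (10.0%), against 18.2% and 18.7% of all genes. A further limit is that 5 members were detected after doxorubicin only and could not be called lower. DUSP5, a phosphatase of nuclear ERK, read 7.61 in untreated cells, 6.50 with aclarubicin, 10.87 with doxorubicin and 6.44 with the combination and was 20.6-fold higher.

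The matrix, contractile and nuclear envelope lists each held genes on both sides. Over all genes, 18.2% were higher after doxorubicin and 18.7% lower. In the matrix, TGF-beta and YAP list, 5 of 18 were higher after doxorubicin and 4 lower. ACTA2, smooth muscle actin, read 6.71 in untreated cells, 9.99 with aclarubicin, 12.78 with doxorubicin and 10.75 with the combination, above untreated after either drug and 6.91-fold higher after doxorubicin. SMAD3, a transducer of TGF-beta signals, read 7.99 in untreated cells, 6.91 with aclarubicin, 9.41 with doxorubicin and 6.53 with the combination and was 5.69-fold higher. SPARC, a collagen-binding protein, read 9.79 in untreated cells, 10.81 with aclarubicin, 8.27 with doxorubicin and 10.63 with the combination and was 5.81-fold lower. Among 20 actin and contractile genes, 1 was higher and 5 lower, the higher gene being ACTA2 and the lower ones led by TPM4, a tropomyosin, at -2.10 on the log2 scale. Over the 19 detected on both arrays, 26.3% were lower, near the 25.7% of all genes detected on both. LMNB2, a B-type lamin, was the gene lower after doxorubicin among 14 of the nuclear lamina and envelope, at -1.30, and 2 were higher. The other 11 were called neither way.

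In nucleotide synthesis, 6 of 24 were lower after doxorubicin, where 18.7% of all genes were, and 2 higher. Over the 23 detected on both arrays, 26.1% were lower, near the 25.7% of all genes detected on both. PFAS, a purine enzyme, read 9.84 in untreated cells, 9.35 with aclarubicin, 6.58 with doxorubicin and 9.29 with the combination and was 6.83-fold lower, with doxorubicin below untreated. GMPS, which makes guanine nucleotides, read 11.17 in untreated cells, 8.88 with aclarubicin, 10.88 with doxorubicin and 8.51 with the combination and was 4.004-fold higher, with aclarubicin below untreated. In cholesterol and lipid synthesis, 6 of 23 were lower (26.1%) and 3 higher. Over the 21 detected on both arrays, 28.6% were lower, again near that 25.7%. LSS, which closes the sterol rings, read 8.14 in untreated cells, 9.51 with aclarubicin, 7.09 with doxorubicin and 9.35 with the combination and SCD, the fatty acid desaturase, read 12.50 in untreated cells, 12.52 with aclarubicin, 10.24 with doxorubicin and 12.43 with the combination, 5.34-fold and 4.88-fold lower. The respiratory chain and ATP synthase list gave 12 of 76 lower, a smaller share than the 18.7% over all genes, and 5 higher.

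The lists of the proteasome, of ribosome biogenesis and of RNA polymerase subunits gave shares of 13.6% to 22.2% in either direction. Over all genes, 18.2% were higher and 18.7% lower. Other lists of large assemblies lay outside this range, with 32.5% of mitochondrial and 4.11% of cytosolic ribosomal protein genes higher. Of 27 proteasome subunits, 6 were higher after doxorubicin and 5 lower. Subunits of its cap lay on both sides: PSMD6 read 11.67 in untreated cells, 9.18 with aclarubicin, 11.84 with doxorubicin and 9.12 with the combination and was 6.33-fold higher, and PSMC4 read 9.47 in untreated cells, 10.15 with aclarubicin, 8.08 with doxorubicin and 10.15 with the combination and was 4.19-fold lower. Of 44 ribosome biogenesis and RNA polymerase I genes, 7 were higher and 6 lower, with a median near that of all genes, 0.02. NOL11, a factor of pre-ribosomal RNA synthesis, read 12.48 in untreated cells, 8.84 with aclarubicin, 12.28 with doxorubicin and 8.27 with the combination and was 10.8-fold higher. NHP2, a protein of H/ACA particles and so a partner of small nucleolar RNAs, read 9.79 in untreated cells, 10.97 with aclarubicin, 8.20 with doxorubicin and 11.005 with the combination and was 6.83-fold lower. The RNA polymerase II and III subunits gave 4 higher and 5 lower of 25.

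Signalling lists were small. Over all genes, 18.2% were higher after doxorubicin and 18.7% lower. In Wnt feedback, 2 of 11 were higher after doxorubicin (18.2%) and 3 lower (27.3%). AXIN2, which is induced by Wnt signals, read 5.46 in untreated cells, 7.77 with aclarubicin, 6.56 with doxorubicin and 8.61 with the combination and was 2.32-fold lower, opposite to the Wnt inhibitor gene DKK1, though its log2 difference turned to 0.053 with median scaling and 0.028 with no scaling between arrays. In NF-kB and inflammatory secretion, 4 of 15 were higher and 2 lower. CXCL8, a neutrophil chemokine, read 6.09 in untreated cells, 7.81 with aclarubicin, 6.33 with doxorubicin and 7.60 with the combination and was 2.79-fold lower, and CCL2, a monocyte chemokine, was above background after aclarubicin (6.79) and not after doxorubicin (4.46). NFKBIA, the inhibitor that NF-kB induces, read 8.18 in untreated cells, 7.79 with aclarubicin, 9.16 with doxorubicin and 8.37 with the combination and was 2.60-fold higher. Of 49 RAB GTPases and partners, which direct vesicles, 17 were higher and 7 lower, with a median of 0.56. In lysosome and autophagy, 5 of 35 were higher and 7 lower. Of the larger symbol families, ZNF zinc fingers gave 38 higher and 16 lower of 230, of which 142 were detected after doxorubicin only and could not be called lower, and solute carriers 26 and 41 of 186.

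**Figure D5:**
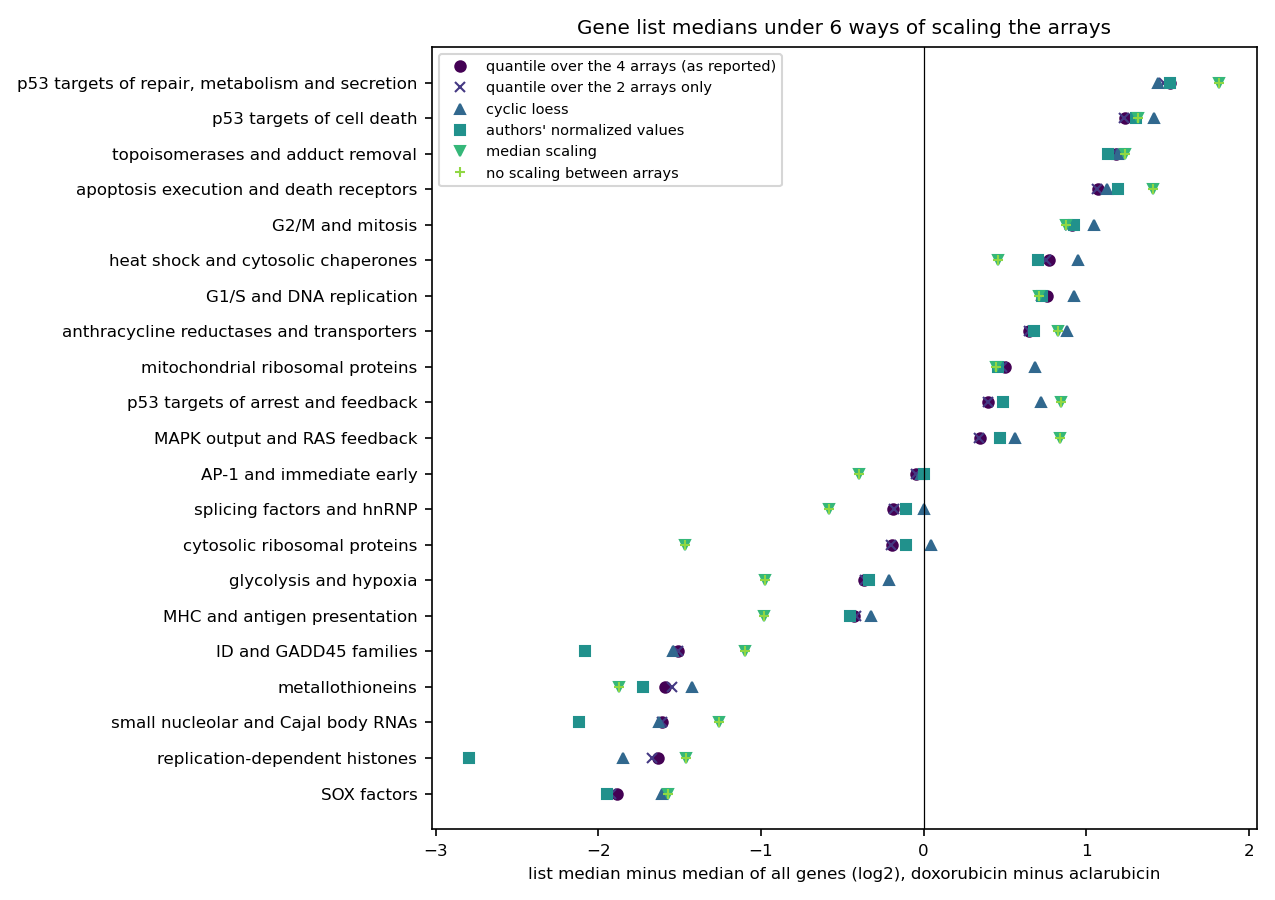
Median log2 difference of 21 gene lists minus the median of all genes (horizontal axis), doxorubicin minus aclarubicin, under 6 ways of scaling the arrays. The p53, cell death and cell cycle lists stay right of 0 and the histone, small nucleolar RNA, metallothionein and SOX lists stay left under all 6, while cytosolic ribosomal proteins cross it under cyclic loess (0.04) and reach -1.47 with median scaling.

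The melanocyte lineage was checked against its markers. Of 10 melanoma markers, 9 were on the array, and MLANA, TYR, PAX3 and S100B were not above background on any of the 4 arrays, although pigment cells commonly express them. MITF, the regulator of melanocytes, was above background after doxorubicin (6.56) and not after aclarubicin (4.55), and its bound did not reach 2-fold. SOX10, the lineage factor, read 10.38 in untreated cells, 7.02 with aclarubicin, 9.79 with doxorubicin and 6.72 with the combination and was 6.83-fold higher after doxorubicin, which was near untreated. TYRP1, a pigment enzyme, went the other way at 10.82 in untreated cells, 11.37 with aclarubicin, 8.02 with doxorubicin and 11.05 with the combination, 10.2-fold lower after doxorubicin. PMEL, a fibril protein of melanosomes, read 6.40 in untreated cells, 7.56 with aclarubicin, 7.40 with doxorubicin and 7.52 with the combination and differed by -0.15. SOX factors lay on both sides: of 7 listed and measured, 4 were lower and 3 higher after doxorubicin. SOX9 read 11.74 in untreated cells, 10.47 with aclarubicin, 8.29 with doxorubicin and 10.92 with the combination and SOX2 read 6.55 in untreated cells, 9.28 with aclarubicin, 6.20 with doxorubicin and 10.31 with the combination, 4.51-fold and 8.45-fold lower. Markers of other cells were largely not above background. On the doxorubicin and aclarubicin arrays, 1 and 1 of 8 fibroblast, 1 and 1 of 7 keratinocyte, 3 and 2 of 7 leukocyte and 2 and 1 of 6 endothelial markers present on the array were detected. The leukocyte sum was 534 untreated, 1896 with aclarubicin, 879.8 with doxorubicin and 2226 with the combination in linear units; PTPRC, CD3E, LYZ and TYROBP were below background on every array, and CD14 and CD68 made up most of the sum. The part of other cells in the differences above was not tested.

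Genes that span very long stretches of DNA were examined as a list chosen after the values were seen, leaving out genes already known from the leading ones. Of 67 such genes, 30 were measured, 12 were lower after doxorubicin and 3 higher, with a median of -0.35. Over all genes, 18.7% were lower. Of the 12, 4 were above background after aclarubicin only and so had to be called lower. A further 10 measured genes were detected after doxorubicin only and could not be called lower. Of the 16 detected on both arrays, 8 were lower and 2 higher, where 25.7% of all genes detected on both were lower. DOCK1, a guanine exchange factor, read 7.58 in untreated cells, 8.13 with aclarubicin, 5.33 with doxorubicin and 7.79 with the combination and LPP, a focal adhesion protein, read 8.82 in untreated cells, 9.28 with aclarubicin, 6.76 with doxorubicin and 8.76 with the combination, 6.97-fold and 5.74-fold lower. NAV2, a neuron navigator protein, was opposite at 9.59 in untreated cells, 6.70 with aclarubicin, 9.80 with doxorubicin and 5.44 with the combination (not above background), 8.53-fold higher, with aclarubicin low. DPYD and IMMP2L, outside the list, are also very long and were among the 8 largest bounds, at least 11.3-fold and 11.7-fold lower after doxorubicin. They are named because of these bounds and add nothing to the share. Both were above background after aclarubicin and not after doxorubicin, and so had to be called lower.

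The promoters of the leading genes were read from RefSeq (GRCh38.p14), because several genes high after aclarubicin, histones among them, are known for a TATA box. The stretches below are the 120 bases before the annotated start, 5′ to 3′ on the strand of the gene, shown for 3 genes higher after aclarubicin and 3 higher after doxorubicin. These genes were picked from the leading ones and do not follow rank: RPL36A and DKK1 are not shown. How often the motif occurs is therefore read from the shares given after the sequences. Capitals mark TATAAA, which was searched on both strands as TATAAA or TTTATA.
GADD45B (chr19:2476007-2476126, plus strand): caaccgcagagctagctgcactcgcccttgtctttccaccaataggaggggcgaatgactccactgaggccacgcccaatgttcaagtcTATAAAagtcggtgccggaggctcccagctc
FOSB (chr19:45467876-45467995, plus strand): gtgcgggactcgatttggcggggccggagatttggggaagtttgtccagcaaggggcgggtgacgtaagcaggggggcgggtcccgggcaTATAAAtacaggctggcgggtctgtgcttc
H3C13 (chr1:149813694-149813813, minus strand): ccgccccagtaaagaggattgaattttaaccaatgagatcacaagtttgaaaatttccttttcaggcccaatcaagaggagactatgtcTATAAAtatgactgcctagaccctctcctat
GDF15 (chr19:18386038-18386157, plus strand): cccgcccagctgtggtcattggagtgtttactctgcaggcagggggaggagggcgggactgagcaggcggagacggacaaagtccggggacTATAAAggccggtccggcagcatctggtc
CDKN1A (chr6:36678594-36678713, plus strand): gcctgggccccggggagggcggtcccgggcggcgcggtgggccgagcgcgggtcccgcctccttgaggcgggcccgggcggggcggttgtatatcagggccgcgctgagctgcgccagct
TP53I3 (chr2:24084835-24084954, minus strand): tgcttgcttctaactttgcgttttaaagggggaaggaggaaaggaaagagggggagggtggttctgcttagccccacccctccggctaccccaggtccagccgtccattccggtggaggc
The motif is present in GADD45B, FOSB, H3C13 and GDF15, with its first base 29 to 31 bases before the start, and these letters are not in the windows of CDKN1A and TP53I3. Promoters were found for 8113 of 9801 genes. Within 250 bases before the start, TATAAA was present in 108 of 1476 genes lower after doxorubicin (7.32%), 85 of 1529 higher (5.56%) and 256 of 5108 called neither way (5.01%). Over all 8113 measured genes with a promoter it was present in 449 (5.53%). Over all 27305 promoters of the table, measured or not, it was present in 11.1%. Among the histone genes it was present in 19 of 26, and without them the share of the lower genes was 6.45%. At 8-fold the shares were 15.9% of 44 lower genes and 11.3% of 124 higher genes. The median GC content of these stretches was 64.2% for the lower and 64.8% for the higher genes. A match is a string of letters and not a measured site.

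Probes of 1 gene did not always run together. Of 1397 genes with several probes detected on both arrays, 284 had probes of opposite sign. Of 392 genes with exactly 2 probes, both detected and both past 2-fold, 382 had them in the same direction and 10 in opposite directions. Counting genes with more probes, 14 had probes past 2-fold on each side. Examples, chosen after their values were seen, are NGDN, a nucleolar protein gene, and PDCD10, a vascular signalling adaptor. NGDN had probes at 3.33 and -1.17 on the log2 scale, and PDCD10 at 2.69 and -1.15. For these 14 genes the brightest probe does not give a direction. Among them, DIABLO, DNAJB6, GCLM, NDUFAF7 and RPL34 stand in the counts of the apoptosis, heat shock, oxidative stress, respiratory chain and cytosolic ribosome lists, 1 gene in each.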

How the data were processed

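The authors deposited non-normalized intensity values, 1 signal per probe and array for 48803 probes, with a detection p-value beside each signal, per the file headers. They also deposited a normalized table that appears to be on a log2 scale at its bright end, with its method not given in the sources used here; lumi is named in the submitters' processing notes. Signals were background-corrected by normexp from the detection p-values with an offset of 16, taken to log2 and quantile-normalized over the 4 arrays with limma 3.58.1 in R 4.3.3. Of the probes, 27578 carried 1 gene symbol, 13 several and 21212 none here; 27541 matched a current table of gene names by Entrez identifier. A gene was represented by its detected probe of highest mean level. Lower bounds were set at 0 where they came out below it, and such genes stay in the medians. The number of arrays limits the precision.

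The genes compared and the 57 gene lists were chosen with earlier results of these data known, and 1 list, of very long genes, after its comparison had been looked at. Named genes were the 15 highest and 15 lowest among genes detected on both arrays with no detected probe of opposite direction, the 8 largest bounds in each direction, in each list up to 6 members from either end, and preset p53, topoisomerase, stress and lineage genes. Coding length was not used here. Calculations used Python 3.11.15, numpy 2.4.6, pandas 2.3.3 and matplotlib 3.10.9. Alternatives were other background corrections, scalings, probe rules, detection filters and thresholds, and the authors' normalized values.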

Additional observations from a re-analysis of the deposited data

Results flagged for a closer look

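In 32 of the genes named, the anthracyclines lay on opposite sides of the untreated array, each at least 2-fold away from it. The untreated array is shared, each group has 1 array, and the difference between the drugs was not tested. Doxorubicin was above untreated and aclarubicin below in 21 of them. Their log2 differences, doxorubicin minus aclarubicin, are given in brackets. Among p53 and stress targets these were GDF15 (5.68), PPM1D (4.79), E2F7 (4.21), PCNA (4.39), APAF1 (3.98) and TNFRSF10A (3.74). Among survival, signalling and chaperone genes they were BCL2L1 (3.62), DUSP5 (4.36), CCN1 (3.99), SMAD3 (2.51) and HSPA1B (2.85). Among replication, ribosomal and splicing genes they were RFC4 (3.93), MRPL39 (3.92), RPL39L (3.50) and SRSF5 (3.64), and other leading genes were AVPI1 (5.11), SERTAD2 (5.06), PFKFB4 (4.90), TRAF3IP2 (4.84), VCF1 (4.76) and PLIN2 (4.61). PPM1D stood 2.67 above untreated after doxorubicin and -2.12 from it after aclarubicin, and PCNA stood 1.36 and -3.03 from it.

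The reverse, doxorubicin below untreated and aclarubicin above, held in 11 genes. The ribosomal protein genes among them were RPL36A (-4.28), RPL14 (-3.26) and RPS23 (-3.15). Genes of the endoplasmic reticulum, mitochondria, sterol synthesis and matrix were CANX (-2.18), CYCS (-2.14), LSS (-2.42) and SPARC (-2.54). The remaining genes were RSU1 (-4.04), SRI (-4.01), NT5DC2 (-3.50) and NHP2 (-2.77). RPL36A stood -2.70 from untreated after doxorubicin and 1.58 after aclarubicin. With median scaling, 31 of the 32 genes stayed on opposite sides of untreated and 19 stayed at least 2-fold away on each; with cyclic loess these counts were 32 and 24, and with no scaling between arrays 31 and 20.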

How the results depend on the processing

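No paired analysis was possible because each group has 1 array. The counts depended on the scaling: with median scaling 4079 genes were higher after doxorubicin, 595 were lower and the median over all genes was 0.69, and with no scaling between arrays these were 4014, 622 and 0.66. A scaling that equalises the arrays removes a shift of most genes, and which level the aclarubicin array should have was not tested. Without lower bounds 2715 genes were higher, with no detection filter and no bounds 2709, and at a 3-fold threshold 998 were higher and 857 lower. The other alternatives stayed within 1.5 times of the reported counts. Of 175 genes named, IGFBP3 turned to 0.13 with median scaling and 0.10 with no scaling, AXIN2 to 0.053 and 0.028, and RPL34, DNAJB6 and GCLM to -0.86, -0.19 and -0.37 with the mean over their probes; of 1720 recalculated values of genes past 2-fold, these 7 changed sign and 319 moved by more than the probe disagreement. Among list medians past 2-fold, that of topoisomerases and adduct removal turned to -0.24 over genes detected on both arrays, and of 626 recalculated list medians 94 moved by more than the probe disagreement. Relative to all genes, 11 of the 57 medians changed side between scalings. With median scaling, oxidative stress and iron went from 0.46 to -0.54, actin from 0.16 to -0.78, lysosome from 0.07 to -0.44 and melanocyte lineage from -0.11 to 0.44; cyclic loess turned cytosolic ribosomal proteins, splicing factors and proteasome subunits. Genes faint after aclarubicin have only bounds. A bound above 0 gives the least difference. For the 1828 bounds set at 0, neither the size nor the direction of the difference is known.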
